A study of Mus musculus with 2 samples.

Results

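The mitochondrial ribosome protein genes are the nuclear genes whose symbols start with Mrpl or Mrps and end in a number, with or without 1 further letter. Of the 27998 genes listed for the libraries, 77 matched this rule, 48 Mrpl genes and 29 Mrps genes, and the rule used no measured value, although the family, and Mrpl14 within it, were singled out with earlier results of these data known. Their UMIs (unique molecular identifiers, each a tag on 1 captured RNA molecule) were read in each library and cell class, with Mrpl14 set against the other 76 members. The data are single-cell RNA sequencing (scRNA-seq) of brain from mice at P0, the day of birth, labelled telencephalic tissue of strain C57BL/6. There was 1 library of genotype WT and 1 of genotype STINGf/f;Nestin-Cre, called STING cKO here, in which both alleles of STING, the adaptor of cytosolic DNA sensing, carry loxP sites. The study describes its controls as STING fl/fl mice, so whether the library labelled WT carries the floxed alleles is not settled. Nestin-Cre acts in neural stem and progenitor cells and their progeny, the neural lineage, in which endothelial cells, mural cells and microglia are not counted here. Deletion of the gene was not measured in any cell class. The study's methods describe papain dissociation of the cerebral cortex and do not say how many animals went into a library. With 1 library per genotype there was no replicate check, no test between genotypes was possible, and every interval below is a 95% interval of counting error alone.

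Mitochondria keep a small genome that encodes a few core subunits of the respiratory chain, and they translate those messages on ribosomes of their own. The RNA of these ribosomes is made inside the organelle, while all of their proteins are encoded in the nucleus, made in the cytosol and imported. Mrpl genes are named for the large subunit, which joins amino acids, and Mrps genes for the small subunit, which reads the message. Some names no longer match the place of the protein: Mrps30 and Mrps18a proteins sit in the large subunit, and Mrps36 protein is now known as a component of the 2-oxoglutarate dehydrogenase complex. Neural progenitors and young neurons differ in how much they rely on respiration.

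Promoter windows of the 2 members that were lowest in STING cKO relative to WT and of the member that was highest are shown because the results below turn on them. Each window holds 300 bases, from 250 before to 50 after the start of the gene, read 5′ to 3′ on the strand of the gene from the RefSeq table of build GRCm38.p6. The windows are chr17:45686099-45686398 on the plus strand for Mrpl14, chr13:73330759-73331058 on the plus strand for Mrpl36 and chr13:118387203-118387502 on the minus strand for Mrps30. The starts are those of RefSeq. GENCODE M21, used below for gene positions, starts Mrpl36 at 73328513, so the Mrpl36 window lies inside the gene of that annotation. Capitals mark an NRF1-type motif (GCGCA, any base, then GCGC) in Mrpl14 and a YY1-type motif (AAGATGG, here on the opposite strand) in Mrpl36, and Mrps30 held no match to either.
Mrpl14: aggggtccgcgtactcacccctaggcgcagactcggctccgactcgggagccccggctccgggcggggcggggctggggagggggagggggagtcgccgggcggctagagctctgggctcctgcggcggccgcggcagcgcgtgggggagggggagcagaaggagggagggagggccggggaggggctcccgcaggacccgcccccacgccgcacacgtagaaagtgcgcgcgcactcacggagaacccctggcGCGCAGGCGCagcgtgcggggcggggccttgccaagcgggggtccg
Mrpl36: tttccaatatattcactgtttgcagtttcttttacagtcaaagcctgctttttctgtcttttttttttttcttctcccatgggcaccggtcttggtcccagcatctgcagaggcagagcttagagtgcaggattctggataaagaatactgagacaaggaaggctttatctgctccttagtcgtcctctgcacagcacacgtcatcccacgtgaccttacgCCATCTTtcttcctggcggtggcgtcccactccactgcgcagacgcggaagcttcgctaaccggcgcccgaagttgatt
Mrps30: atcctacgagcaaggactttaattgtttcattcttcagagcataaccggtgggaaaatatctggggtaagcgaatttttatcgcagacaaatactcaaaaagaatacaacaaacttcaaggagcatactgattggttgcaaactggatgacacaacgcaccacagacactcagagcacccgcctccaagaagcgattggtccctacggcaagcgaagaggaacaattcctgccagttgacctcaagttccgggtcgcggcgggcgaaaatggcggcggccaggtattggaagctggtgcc

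NRF1 and ETS-family factors are known regulators of nuclear genes for mitochondrial proteins, and 3 motifs were searched on both strands in the windows. Of the 77 members, 68 had a window, against 27025 genes with a window in all. The NRF1-type motif was found in 13 of the 68 member windows (19.1%) and in 4.78% of all windows. The ETS-type motif (CCGGAAG) was found in 24 member windows (35.3%) and in 9.12% of all windows, and the YY1-type motif in 13 (19.1%) and 6.48%. The member windows had a median GC content of 58.2%, against 52.7% over all windows, and the Mrpl14 window stood at 78%. By response, the ETS-type motif was in 7 of 19 windows of members lower in STING cKO by 1.5-fold or more, in 2 of 6 of those higher and in 15 of 43 of the rest. The NRF1-type motif was in 4, 2 and 7 of these windows and the YY1-type motif in 4, 0 and 9, numbers too small to rank the motifs by response. A match is a description of letters and was not tested as a binding site.

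The WT library held 69554624 UMIs in 10715 barcodes and the STING cKO library 67448785 in 9198, with 19 barcode sequences in both. After filters on genes detected, mitochondrial share and likely doublets, 6428 WT and 5776 STING cKO cells were kept, and 11 cell classes were named from marker genes with the suffix -like. STING itself (Tmem173) had 110 UMIs in kept WT cells and 15 in STING cKO cells, the direction of the labels. These are sums over classes whose cell numbers differed between the libraries, so they do not show in which cells STING was lower. Xist, transcribed from the inactive X chromosome, had 10 UMIs in WT and 67618 in STING cKO, and the Y-linked gene Ddx3y had 2731 and 0. The libraries thus differed in sex as well as in genotype, and the effects of these on any value below cannot be told apart. Kept cells were deeper in STING cKO, with a median of 7458.5 UMIs a cell against 6483. In summed counts, fewer cells of a class and less RNA per cell cannot be told apart, so levels are given as CPM, the UMIs of a gene per 1000000 UMIs of the same cells.

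All 77 members were detected in both libraries, each with at least 50 UMIs. Since a UMI is counted once per captured molecule, CPM is compared between genes here without division by transcript length. The mean CPM of the libraries ranged from 1.20 for Mrpl53 to 210.0 for Mrpl20, with a median of 57.4, and 62 members lay between 10 and 100 CPM. The most abundant messages were Mrpl20 (201 CPM in WT and 219 in STING cKO), Mrps33 (235 and 182), Mrpl30 (202 and 204), Mrpl52 (253 and 153), Mrpl11 (141 and 179) and Mrps24 (141 and 152). They code for proteins of both subunits, some of bacterial descent, such as Mrpl20 and Mrpl11, and some found only in mitochondria, such as Mrps33 and Mrpl52. The least abundant were Mrpl53 (1.16 and 1.24 CPM), Mrps27 (16.0 and 8.21), Mrps2 (16.7 and 9.74) and Mrpl47 (19.3 and 8.99). Mrpl53 lies inside the span of Ccdc142 on the same strand, and Mrps24 and Urgcp overlap in the same way, and Mrpl30 has 2 near-identical copies (Gm11945 and Gm6238), so part of their counts is uncertain. The order of levels was similar in the libraries, with a Spearman correlation across the 77 members of 0.743, and 0.773 without Mrpl14. Genes are not independent replicates, and this value describes the libraries.

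The members together took 0.614% of all UMIs in kept WT cells and 0.467% in STING cKO. Without Mrpl14, the other 76 members summed to 6038 CPM in WT (interval 6017 to 6059) and 4654 CPM in STING cKO (4636 to 4673), a log2 ratio of cKO over WT of -0.38. The median of the 14594 genes with at least 50 UMIs in the libraries together was itself -0.25, so log2 ratios are given from here minus that median of the same cells and called centred. The centred ratio of the summed family was -0.13, with -0.12 for the Mrpl genes other than Mrpl14 and -0.15 for the Mrps genes. The median centred ratio of the 76 members was -0.17. Over all kept cells the median size of a centred ratio, sign ignored, was 0.430 over the members and 0.498 over all genes tested. In projection neuron-like cells these were 0.488 and 0.499. In the other classes with at least 50 cells in each library this median size was larger over the members. It is a distance from the median gene, so a shift of the members to 1 side of 0 raises it as spread does. Values were 0.514 and 0.471 in GABAergic neuron-like, 0.529 and 0.411 in intermediate progenitor-like and 0.450 and 0.413 in cycling progenitor-like cells. They were 0.461 and 0.400 in radial glia/astrocyte-like and 0.429 and 0.417 in oligodendrocyte precursor-like cells. Endothelial-like cells gave 0.527 and 0.476 and Cajal-Retzius-like cells 0.377 and 0.329.

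Of the 77 members, 20 were lower in STING cKO by 1.5-fold or more on the centred scale, while 24.6% of all genes tested were lower by that much. Higher by 1.5-fold or more were 8 members, against 18.0% of all genes tested. At 2-fold, 9 members were lower and 1 was higher, with 13.5% and 5.52% of all genes tested. The counts at 1.5-fold depended on the scale and the cells, becoming 31 lower and 1 higher without centring (33.9% and 9.48% of all genes) and 34 and 3 in cells of under 4000 UMIs (23.6% and 20.1%). On the centred scale and over these pooled cells the share of lower members was thus near that of all genes, and the share of higher members was below that of all genes. The members were more abundant than most genes, with Mrpl14, the member of median level, at percentile 85.2 of the genes detected. The shares of all genes given here and below were not matched for level. Within each of the 8 larger classes the share of lower members was above that of the genes tested there. Sorting the members by listed ancestry made little difference. The median centred ratio was -0.15 for the 29 listed as without a bacterial counterpart and -0.18 for the 46 listed with one. The listing, which puts Mrpl55 among the 29, was not checked by sequence. The medians of the 47 Mrpl genes other than Mrpl14 and of the 29 Mrps genes were -0.18 and -0.15.

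**Figure D1:**
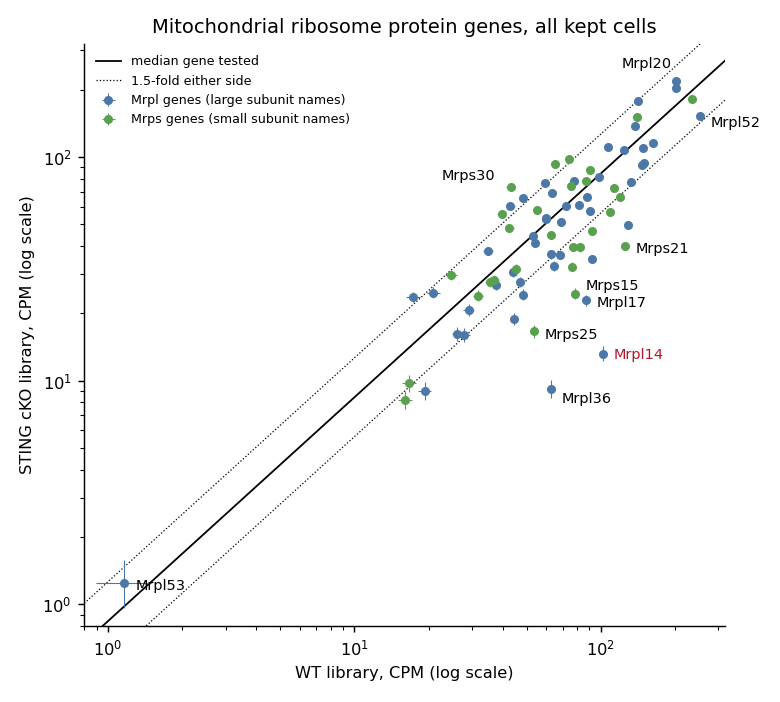
CPM of each of the 77 members in the WT library (horizontal) and the STING cKO library (vertical), all kept cells, both axes on log scales, with 95% counting intervals. The solid line is the median gene tested and dotted lines lie 1.5-fold either side; Mrpl14 (101.7 and 13.2 CPM) and Mrpl36 (62.6 and 9.20 CPM) sit farthest below the line.

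Over all kept cells Mrpl14 had the lowest centred ratio of the family. By class, Mrpl36 lay lower in projection neuron-like (-2.89 against -2.80), intermediate progenitor-like (-2.88 against -2.59) and Cajal-Retzius-like cells (-2.61 against -0.97). Several other members also lay below Mrpl14 in Cajal-Retzius-like cells, such as Mrpl49 (-1.54) and Mrps6 (-1.24). In ependymal-like cells Mrps6 was below Mrpl14 (-2.51 against -2.23), on 3 and 4 UMIs in STING cKO. The Mrpl14 protein is a conserved large subunit protein at the face that meets the small subunit. The gene (ENSMUSG00000023939) lies on chromosome 17 from 45686322 to 45698495 on the plus strand in GRCm38, and its 5′ end overlaps that of Tmem63b on the opposite strand. In WT it had 5412 UMIs, or 101.7 CPM (interval 99.0 to 104), and in STING cKO 690 UMIs, or 13.2 CPM (12.2 to 14.2). The intervals were far apart, and the gene ranked 20 of 77 in WT and 72 in STING cKO. The centred log2 ratio was -2.70 (interval -2.82 to -2.58). Of the 14594 genes tested, 139 were at or below that value, Mrpl14 included, so a ratio of this size was uncommon but was not confined to Mrpl14.

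Mrpl36 stood almost as low. It codes for a short protein of the large subunit with a bacterial counterpart, and its gene on chromosome 13 overlaps Ndufs6 on the opposite strand. It had 3330 UMIs in WT and 481 in STING cKO, or 62.6 and 9.20 CPM, with a centred log2 ratio of -2.52 (interval -2.66 to -2.38). The interval overlapped that of Mrpl14. Below these came Mrpl17, another large subunit protein with a bacterial counterpart, with 86.8 CPM in WT and 22.9 in STING cKO (centred ratio -1.67). The small subunit genes Mrps25 (53.5 and 16.6 CPM, -1.44), Mrps15 (78.3 and 24.5, -1.43) and Mrps21 (125 and 39.9, -1.40) followed closely. Mrpl51 (91.8 and 35.0 CPM, -1.14) and Mrpl34 (129 and 49.8, -1.13) completed the 8 lowest members. Over all kept cells Mrpl14 and Mrpl36 thus stood apart from the rest of the low members. This did not hold in every class. In endothelial-like cells Mrpl36 was at -1.45, above Mrps25 (-2.31), Mrps15 (-1.76) and Mrpl17 (-1.73). Mrps21 has a near-identical copy elsewhere in the genome, and how reads of the copy were counted is not given in the sources used here.

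At the other end, Mrps30 was highest, at 43.0 CPM in WT and 73.5 in STING cKO, with 2290 and 3843 UMIs and a centred log2 ratio of 1.02 (interval 0.94 to 1.09). Mrps34 (65.3 and 92.9 CPM, 0.76), Mrpl22 (42.9 and 60.3, 0.74), Mrps35 (39.7 and 55.4, 0.73) and Mrpl1 (17.4 and 23.7, 0.69) came next. They were followed by Mrpl2 (48.4 and 65.3 CPM, 0.68), Mrps26 (74.0 and 98.3, 0.66) and Mrpl9 (59.2 and 76.2, 0.61). Mrps34, Mrps35 and Mrps26 code for small subunit proteins particular to mitochondria. Mrpl1, Mrpl2, Mrpl9 and Mrpl22 code for large subunit proteins with bacterial counterparts, Mrpl2 among them close to the catalytic centre. Mrpl22 has a near-identical copy, and Mrps34 overlaps Nme3 and Mrpl2 overlaps Gm26904 on the same strand. Without the centring, all of these 8 were still above 0 on the log2 scale, at 0.36 to 0.77.

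Levels of Mrpl14 differed between cell classes in both libraries. In WT, Mrpl14 ranged from 92.6 CPM in GABAergic neuron-like and OPC-like (oligodendrocyte precursor) cells to 123 in cycling progenitor-like cells among the 8 classes with at least 50 cells in each library, and the intervals of GABAergic neuron-like (86.4 to 99.2) and cycling progenitor-like cells (113 to 134) were apart. In STING cKO it was 12.6 CPM in projection neuron-like cells, 8.27 in GABAergic neuron-like cells, 13.4 in cycling progenitor-like cells, 17.6 in radial glia/astrocyte-like cells and 18.1 in intermediate progenitor-like cells. Of the 76 UMIs behind the last value 67 came from a cluster led by Calb2, Neurod1 and Crym (20.4 CPM), which had 1 marker of its own class and 1 of another among its 10 leading genes, and 9 from the Eomes-led cluster (9.83 CPM). It was 9.09 CPM in OPC-like cells on 11 UMIs. The centred ratios of these classes ran from -2.43 in radial glia/astrocyte-like cells to -3.43 in GABAergic neuron-like cells. WT was above STING cKO in all 28 clusters, and the counting intervals were apart in 26 of them.

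**Figure D2:**
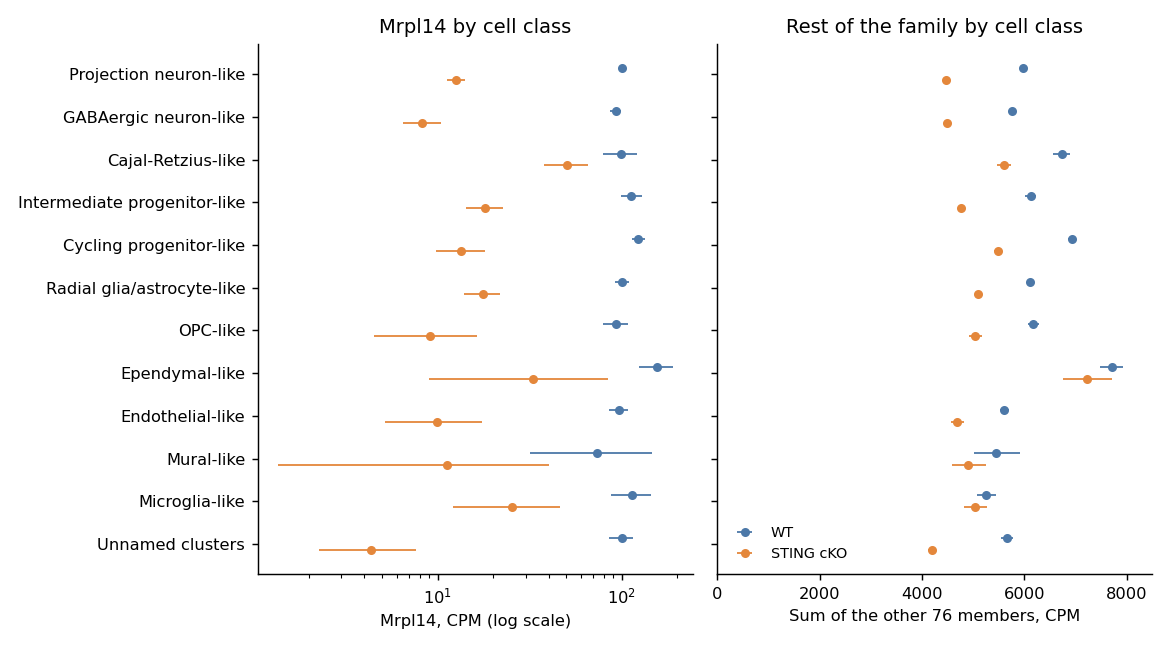
CPM of Mrpl14 (left, log scale) and of the sum of the other 76 members (right, linear from 0) in each cell class, with 95% counting intervals; blue points are the WT library and orange points STING cKO. Mrpl14 lies between 73.7 and 155 CPM in WT and between 4.37 and 33.0 CPM in STING cKO, except in Cajal-Retzius-like cells of STING cKO (50.2 CPM).

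Mrpl14 was lower in STING cKO outside the neural lineage as well. In endothelial-like cells, which line vessels, it was 96.2 CPM on 293 UMIs in WT and 9.97 CPM on 12 UMIs in STING cKO, a centred ratio of -3.16 (interval -4.13 to -2.33). In microglia-like cells, the resident macrophages of brain, it was 113 CPM on 65 UMIs in 48 WT cells and 25.2 CPM on 10 UMIs in 25 STING cKO cells, -2.16 (-3.29 to -1.19). Barcodes left out by the cell filters, which hold more mitochondrial RNA and fewer UMIs, had 66.9 and 7.44 CPM. The Mrpl14 ratio in endothelial-like cells lay within the range of the neural classes just given. Mrpl36 was at -1.45 (-1.98 to -0.96) in endothelial-like and -0.50 (-1.37 to 0.33) in microglia-like cells. In the neural classes with at least 50 cells in each library it ran from -3.19 in OPC-like to -2.17 in radial glia/astrocyte-like cells. Across the 74 members tested in both, centred ratios in projection neuron-like and endothelial-like cells had a Pearson correlation of 0.807, and 0.782 without Mrpl14 and Mrpl36. These values come from the same pair of libraries, and serve as a description.

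Cajal-Retzius-like cells, the Reln-producing neurons of the cortical surface, were the exception for Mrpl14. The gene had 90 UMIs in 60 WT cells, or 98.6 CPM (interval 79.3 to 121), and 56 UMIs in 59 STING cKO cells, or 50.2 CPM (37.9 to 65.2). The intervals did not overlap, and the centred ratio was -0.97 (-1.48 to -0.48), the interval of which lay apart from that of each of the other 7 classes with at least 50 cells in each library. At least 1 UMI was found in 41 of the 60 WT cells (68.3%) and in 34 of the 59 STING cKO cells (57.6%), at medians of 15656 and 19473 UMIs a cell. In projection neuron-like cells the shares were 58.4% and 10.6%, at medians of 8687 and 9036 UMIs. With every cell thinned to 1000 UMIs, and no Cajal-Retzius-like cell too shallow for that, 9 and 4 Cajal-Retzius-like cells had a UMI. The thinned share in STING cKO was 6.78% (interval 1.88 to 16.5), and its interval overlapped that of the projection neuron-like share, 1.39% (0.943 to 1.96). No class that should lack the gene was at hand, so the share that free RNA gives was not measured. Mrpl36 had no such high level, with 45 and 9 UMIs (49.3 and 8.07 CPM, -2.61). Mrpl17 (-1.20), Mrps15 (-1.04) and Mrps21 (-1.05) did have their highest centred ratios of these 8 classes here. Mrps25 (-1.06), Mrpl51 (-0.65) and Mrpl34 (-1.11) did not. Ratios were smaller in this class in general, with a median size of 0.329 over all genes tested, the smallest of these classes, against 0.498 over all kept cells. All 6 Cajal-Retzius markers were at least 5-fold above the other classes in each library. Of the 7 projection neuron markers 6 were in WT and 3 in STING cKO, and of the 6 intermediate progenitor markers 4 and 3, so these classes, on which many values here rest, were less sharply marked.

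Mrpl14 in STING cKO also varied with the number of UMIs in the cell, a comparison added after the values were seen. In STING cKO projection neuron-like cells it was 8.89 CPM in cells under 4000 UMIs, 5.09 from 4000 to under 8000, 8.18 from 8000 to under 16000 and 21.6 in cells of 16000 or more. In WT the same bins gave 118, 99.5, 98.7 and 103 CPM. The centred ratio was -4.20 in the second bin and -2.07 in the deepest, so the size of the difference rested on which cells were summed while its direction did not. Mrpl36 went from 2.88 to 12.7 CPM between these bins in STING cKO and Mrps25 from 4.65 to 26.2, against 47.6 to 65.5 and 41.5 to 58.7 CPM in WT. Mrpl51 was at 23.1 CPM in the shallowest bin of STING cKO, on 13 UMIs, then at 29.5, 22.9 and 26.7 CPM, and the interval of the shallowest bin (12.3 to 39.5) included the other values. Deep cells of this class also belong to different clusters than shallow ones, and the part of depth as such was not tested. Cajal-Retzius-like cells were deep, with a median of 19473 UMIs in STING cKO, and their 50.2 CPM of Mrpl14 lay above the interval of the deepest projection neuron-like bin (18.7 to 24.9 CPM).

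**Figure D3:**
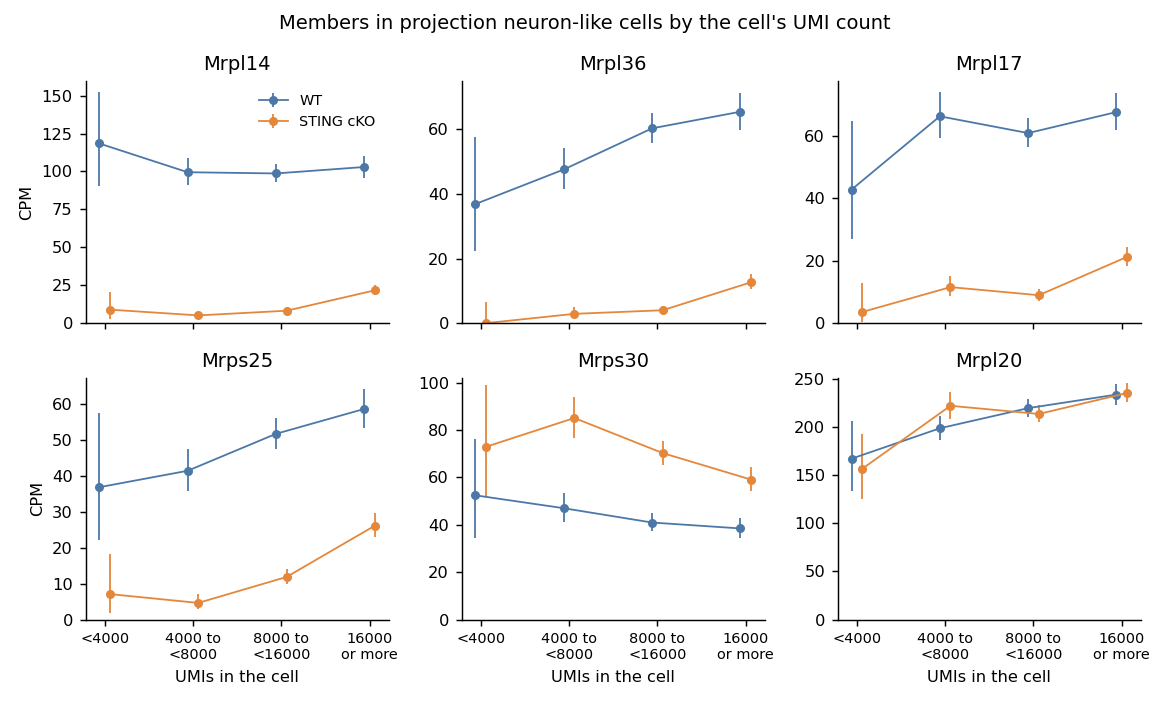
CPM of 6 members in projection neuron-like cells grouped by the UMI count of the cell (horizontal, 4 bins), with 95% counting intervals; blue is the WT library and orange STING cKO. Mrpl14, Mrpl36, Mrpl17 and Mrps25 are low in STING cKO and highest in its deepest bin, Mrps30 is above WT and Mrpl20 lies close to WT.

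The 8 lowest members were low in each of the larger classes. They had been picked by sums that include these same cells, so this is a description and no separate support. Of the 70 members tested in all 8 classes with at least 50 cells in each library, 10 (14.3%) were lower by 1.5-fold or more in each class, as were 3.09% of the 4595 genes tested in all of them. The members were Mrpl14, Mrpl17, Mrpl34, Mrpl36, Mrpl49, Mrpl51, Mrps15, Mrps21, Mrps25 and Mrps36, the last of which has 2 near-identical copies. Mrpl17 ranged from -2.01 in projection neuron-like cells to -1.20 in Cajal-Retzius-like cells. In smaller classes not all of the 10 were past that size, with Mrps21 at -0.11 (interval -0.96 to 0.65) in ependymal-like cells. In microglia-like cells Mrpl36 was at -0.50 (-1.37 to 0.33) and Mrps36 at -0.22 (-0.89 to 0.42). Higher by 1.5-fold or more in all 8 classes were 0 members and 2.05% of the genes. Mrps30 came nearest, past that size in 7 of 8, with 0.51 in cycling progenitor-like cells and 1.03 in GABAergic neuron-like cells. Centred ratios were below 0 in all 8 classes for 31 members and above 0 in all 8 for 9 (Mrpl2, Mrpl11, Mrpl20, Mrpl22, Mrpl44, Mrpl50, Mrps26, Mrps30 and Mrps35), while 30 had both signs. Of all genes tested in the 8 classes, 19.2% were below 0 in each and 24.7% were above 0 in each. Mrps31 and Mrpl10 alone passed 1.5-fold in both directions in different classes. Mrps31 was at -0.76 in Cajal-Retzius-like and 1.41 in endothelial-like cells.

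In 7 of the 8 larger classes the median centred ratio of the members other than Mrpl14 was lower than the -0.17 over all kept cells. It ran from -0.42 in GABAergic neuron-like to -0.19 in endothelial-like cells, and in radial glia/astrocyte-like cells it was -0.17. In projection neuron-like cells 28 of 77 members were lower by 1.5-fold or more and 6 higher, against 24.2% and 18.9% of the genes tested there. In GABAergic neuron-like cells 29 of 76 were lower and 6 higher (23.3% and 17.4% of genes). In cycling progenitor-like cells 30 of 76 were lower and 2 higher (19.7% and 15.3%), and in radial glia/astrocyte-like cells 21 and 5 of 76 (19.6% and 13.9%). Endothelial-like cells gave 26 lower and 8 higher of 74 (22.7% and 18.3%). Intermediate progenitor-like cells gave 28 and 7 of 76 (19.5% and 15.1%), OPC-like cells 24 and 3 of 76 (20.3% and 15.0%) and Cajal-Retzius-like cells 20 and 4 of 70 (14.3% and 10.1%). Of the smaller classes, ependymal-like cells gave 10 lower and 2 higher of 42 (17.3% and 12% of genes), with a median centred ratio of -0.08. Microglia-like cells gave 11 lower and 4 higher of 47 (16.3% and 14%), with a median of 0.05. The median gene lay at -0.25 over all kept cells but at -0.19 in projection neuron-like, -0.06 in GABAergic neuron-like and -0.01 in cycling progenitor-like cells, so the centring took away less in the classes. The largest projection neuron-like cluster was led by Sstr2 and Rnd2 in WT and by Cntn2 and Hs6st2 in STING cKO, and the largest GABAergic neuron-like cluster by Dlx6os1 and Sp8 in WT and by Isl1 and Foxp1 in STING cKO.

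**Figure D4:**
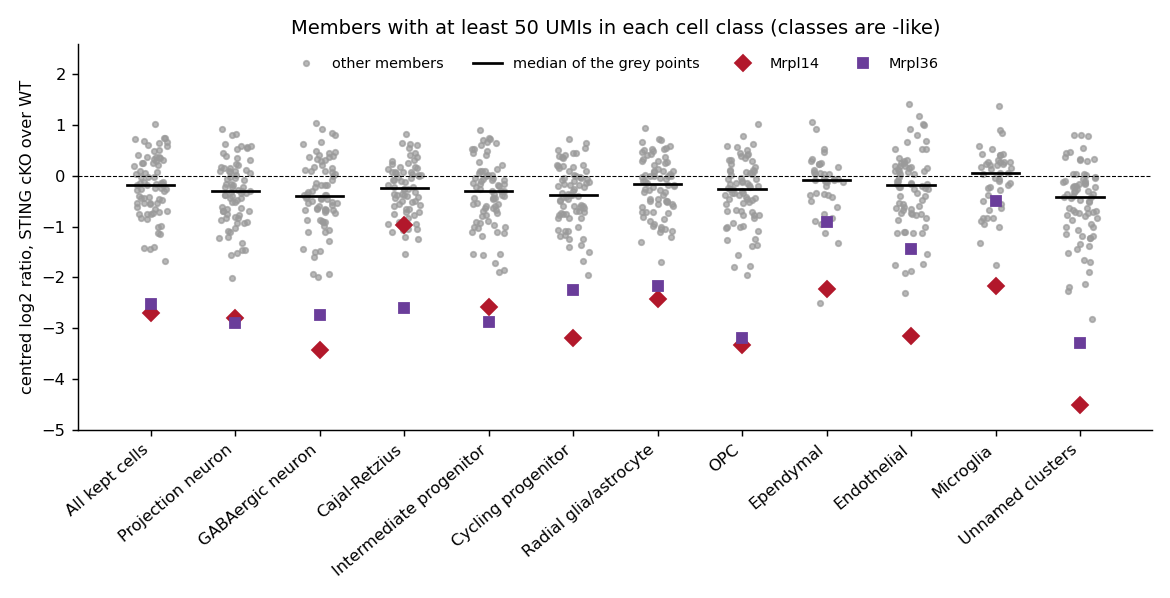
Centred log2 ratio of STING cKO over WT for each member with at least 50 UMIs, by cell class (grey points, median as a black bar); red diamonds are Mrpl14 and violet squares Mrpl36, and the mural-like class, with 2 members tested, is left out. Mrpl14 lies apart from the grey points in all classes shown but Cajal-Retzius-like (-0.97) and ependymal-like cells.

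The sum of the other 76 members was highest in ependymal-like cells in both libraries, while the order of the lower classes differed between them. In WT it was highest in ependymal-like cells, the ciliated lining of the ventricles (7703 CPM), then in cycling progenitor-like (6933), Cajal-Retzius-like (6725), OPC-like (6178), intermediate progenitor-like (6127) and then radial glia/astrocyte-like cells (6115). Projection neuron-like (5982), GABAergic neuron-like (5749), endothelial-like (5610), mural-like (5448) and microglia-like cells (5251) were lower. The intervals of the OPC-like, radial glia/astrocyte-like and intermediate progenitor-like cells overlapped, as did those of mural-like cells with their neighbours in this order. In STING cKO ependymal-like cells were again highest (7220 CPM, 6 cells), then Cajal-Retzius-like (5606) and cycling progenitor-like cells (5479), whose intervals overlapped, and projection neuron-like cells were lowest (4467). Microglia-like cells, the lowest in WT, were at 5041 CPM in STING cKO, above projection neuron-like and GABAergic neuron-like cells (4497). WT was above STING cKO in every named class. In ependymal-like, mural-like and microglia-like cells, with few cells, the interval of the uncentred log2 ratio included 0, and in microglia-like cells it was -0.06 (-0.14 to 0.02). Across the 28 clusters the family CPM of the libraries had a Pearson correlation of 0.883 and a Spearman correlation of 0.738. The Spearman correlation of family CPM with the median UMI count of the cluster was 0.506 in WT and 0.517 in STING cKO, and the part of depth was not tested.

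Cycling progenitor-like cells, marked by Top2a and Cdk1, had more of the family than projection neuron-like cells in each library. Without Mrpl14 the sum was 6933 against 5982 CPM in WT, a log2 ratio of 0.21 (interval 0.19 to 0.23), and 5479 against 4467 CPM in STING cKO, 0.29 (0.27 to 0.32). The median of all genes tested in this comparison was -0.04 in WT and 0.07 in STING cKO. Depth differed as well, with medians of 10294 and 8687 UMIs a cell in WT and 12241 and 9036 in STING cKO. Within projection neuron-like cells the family was higher in deeper cells, from 5159 CPM in the shallowest to 6081 CPM in the deepest bin in WT and from 3817 to 4772 in STING cKO. The part of depth in the difference between the classes was not tested. Of 76 members tested in both libraries, 50 were higher in cycling progenitor-like cells in both, 10 were lower in both and 16 differed in sign. Of the 11087 genes tested in both libraries, 43.1% were higher in both and 41.7% were lower in both.

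By 1.5-fold or more, 12 of 76 members were higher and 1 was lower in cycling progenitor-like cells in WT, where 26.5% and 31.3% of all genes tested were. In STING cKO 25 were higher and 1 was lower, with 30.9% and 28.1% of all genes tested. In both libraries 9 members were higher by that much and 0 were lower, against 22.1% and 24.0% of the genes tested in both. Mrps14, a small subunit protein with a bacterial counterpart, led with 212 CPM in cycling progenitor-like and 82.4 in projection neuron-like cells in WT (log2 ratio 1.36, interval 1.25 to 1.48). In STING cKO its levels were 129 and 38.5 CPM (1.75, 1.58 to 1.91). Mrpl51 was at 160 and 79.9 CPM in WT (1.00) and 105 and 25.5 in STING cKO (2.04), and its centred ratio of STING cKO over WT was -0.60 in cycling progenitor-like and -1.45 in projection neuron-like cells. Mrpl17 (0.81 in WT and 1.64 in STING cKO), Mrpl13 (0.99 and 1.16), Mrpl2 (0.92 and 1.03) and Mrpl55 (0.43 and 1.39) were the others of the 6 highest.

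The members that were lower in cycling progenitor-like cells in both libraries were few and differed less. Mrps26 had 57.3 CPM there and 82.9 in projection neuron-like cells in WT (log2 ratio -0.53) and 72.8 and 106 CPM in STING cKO (-0.54). Mrpl23, whose protein lies at the exit of the peptide tunnel and which has a near-identical copy, had ratios of -0.59 and -0.48. Mrps24 (-0.17 and -0.40), Mrps36 (-0.26 and -0.31) and Mrpl11 (-0.31 and -0.17) were lower by smaller amounts. Mrps34 was -0.01 in WT, with an interval from -0.20 to 0.18, and -1.01 in STING cKO. Mrpl14 was 0.29 (0.15 to 0.43) in WT and 0.08 (-0.41 to 0.54) in STING cKO, where the interval included 0. The ratios of the libraries had a Pearson correlation of 0.656 across the 76 members, as a description of both libraries.

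**Figure D5:**
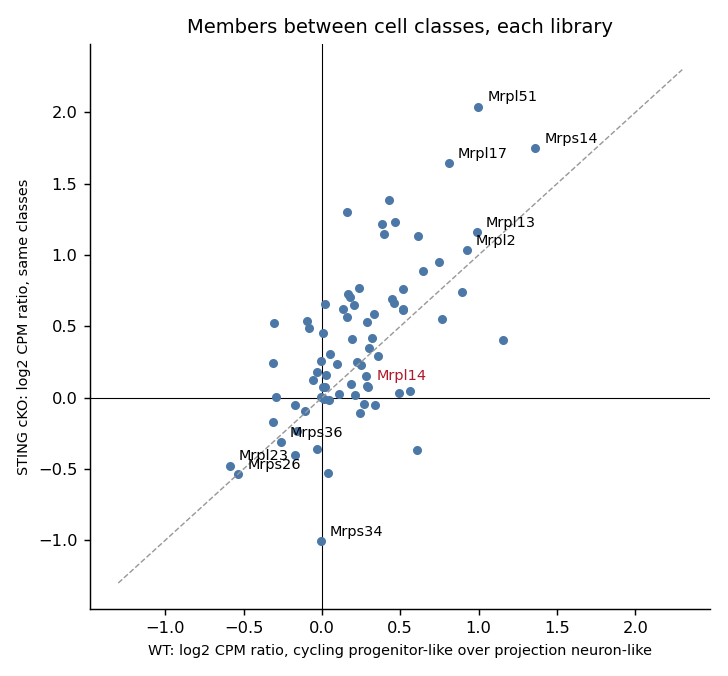
Log2 ratio of CPM in cycling progenitor-like over projection neuron-like cells for 76 members, WT library on the horizontal and STING cKO on the vertical axis; the dashed line marks equal ratios. Most points lie above 0 on both axes, with Mrps14 (1.36 and 1.75) and Mrpl51 (1.00 and 2.04) farthest out.

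Of the 5 genes on each side of Mrpl14 on chromosome 17, 4 were tested and 0 of them were lower by 1.5-fold or more, too few to read against the 24.6% of all genes tested. Tmem63b, the neighbour whose 5′ end overlaps that of Mrpl14 on the other strand, was at 79.7 CPM in WT and 92.2 in STING cKO (centred ratio 0.46). The order of genes here is that of GRCm38 among genes listed in the files. Of the 5 genes on each side, Tmem63b, Vegfa (25.8 and 19.7 CPM, -0.14), Mrps18a (86.9 and 78.4, 0.10, but -0.15 without centring) and Rsph9 (31.1 and 30.8, 0.23) had at least 50 UMIs. The other 6, Gm17080, Gm7325, Capn11, Gm16172, 1600014C23Rik and F630040K05Rik, were below that. Within 10 genes on each side 14 were tested, of which 2 were lower and 3 higher by 1.5-fold or more, against 24.6% and 18.0% of all genes tested. Named after their values were seen, the lower genes were Nfkbie (80 and 21 UMIs, -1.66) and Slc35b2 (40.7 and 22.6 CPM, -0.61), and the higher genes Hsp90ab1 (0.66), Mad2l1bp (0.68) and Polh (1.21). Mrps18a is itself a member of the family. Whether the region has a part in the level of Mrpl14 was not tested.

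The genes most like Mrpl14 in their response were found among 7928 genes tested in each of the 5 largest named classes, by the Euclidean distance between their 5 centred ratios. Nudt5, an ADP-ribose hydrolase, was nearest (distance 0.798), at 25.3 CPM in WT and 3.83 in STING cKO. N6amt2 (68.2 and 12.2 CPM), Smim4 (33.5 and 5.91), the DNA repair gene Rad50 (32.5 and 5.66) and Mrpl36 (62.6 and 9.20) followed. Mrpl36 was the only member of the family among these 5.

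The other genes of mitochondrial translation were read from lists made with earlier results of these data known. Of 12 translation factors, 7 were lower by 1.5-fold or more and 2 higher, with a median centred ratio of -0.67, and of 17 mitochondrial tRNA synthetases 9 were lower and 1 higher, with a median of -0.64. The shares over all genes are those given above, 24.6% and 18.0%. Taco1, a translation activator of the message for cytochrome oxidase subunit 1, had 184 UMIs in WT and 24 in STING cKO (3.46 and 0.459 CPM, -2.67). Mrrf, which recycles the ribosome after termination, had 18.1 and 5.19 CPM (-1.56), and the synthetases Cars2 (21.8 and 5.47, -1.75) and Rars2 (21.6 and 8.30, -1.13) were lower too. Of 20 assembly factors, 7 were lower and 4 higher, with a median of -0.04. Among them Tfb1m, which methylates the small subunit RNA, had 182 and 23 UMIs (3.42 and 0.440 CPM, -2.71), and the GTPase Mtg1 had 16.1 and 4.80 CPM (-1.50). Malsu1, named after its values were seen because its protein binds that of Mrpl14, was at 47.0 and 56.7 CPM (0.52).

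Factors that make and handle mitochondrial RNA were read from a list of 11 genes, of which 3 were lower and 2 higher by 1.5-fold or more, with a median of 0.21, and Slirp, which stabilises mitochondrial messages, was at 78.5 and 29.7 CPM (-1.16). Past 2-fold higher, and named after their values were seen, were Trmt10c of this list, a tRNA-processing factor (23.8 and 42.2 CPM, 1.07), and the assembly factors Dhx30, an RNA helicase (128 and 220 CPM, 1.03), and Mterf3 (19.9 and 34.6, 1.05). The 13 mitochondrially encoded messages, which these ribosomes translate, had a median of 0.32 with none past 1.5-fold either way. The 77 tested nuclear genes of the respiratory chain had a median of 0.04, with 9 lower and 1 higher. Of the 83 tested genes of the cytosolic ribosome, the larger counterpart of this family outside mitochondria, 1 was lower and 8 were higher, with a median of 0.32. Of 6 mitochondrial ribosome genes that carry other names, 1 was lower and 0 were higher, with a median of 0.04. For every list in this paragraph the shares over all genes tested were 24.6% lower and 18.0% higher by 1.5-fold or more. In the respiratory chain and cytosolic ribosome lists the shares past that size were below these in both directions.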

How the data were processed

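The libraries were made with the 10x Genomics Chromium kit. The deposited matrices hold UMI counts per gene and barcode, which the authors made without normalization. Per the labels they were processed with Cell Ranger 2, STAR, Seurat and build mm9, while the matrix header names Cell Ranger 3.0.1, and strand use is not given in the sources used here. The combined matrix and the authors' cluster marker tables, which hold fold changes and p-values, were not used. Depth was 69554624 UMIs in WT and 67448785 in STING cKO.

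Cells with at least 500 genes and at most 10% mitochondrial UMIs were kept. The automatic Scrublet threshold marked 2.44% of WT and 0% of STING cKO cells, so the highest 5% of scores in each library were removed instead. Log values, scaled to 10000 UMIs a cell, were centred per gene within each library and clustered on 2000 variable genes and 30 components (Scanpy 1.11.5, Leiden resolution 1), with members, mitochondrial, cytosolic ribosomal, haemoglobin and sex-linked genes left out. Of 28 clusters 25 were named from marker lists and 3 stayed unnamed, with 449 WT and 622 STING cKO cells.

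UMIs were summed per library and class. CPM have exact Poisson intervals, ratios exact conditional binomial intervals, shares exact Clopper-Pearson intervals, all at 95% and for counting error only. Log2 ratios were centred on the median of genes with at least 50 UMIs in the libraries together. No test was run. The calculation was tested on simulated data. Alternatives covered cell filters, doublets, scaling (edgeR 4.0.16 TMM factors), minimum counts, centring and clustering.

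Positions, overlaps and near-identical copies (at least 95% identity over at least 100 bases and 50% of the transcript, BLAST 2.17.0) come from GENCODE M21 on GRCm38, which held 27645 of the 27998 gene identifiers. Of the members, 13 overlapped a gene on the same strand, 35 on the opposite strand, and 11 had a near-identical copy.

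Named genes were Mrpl14, the 8 highest and 8 lowest members by centred ratio, the 6 most and 4 least abundant, the 6 highest and 6 lowest between cycling progenitor-like and projection neuron-like cells with the same sign in both libraries, up to 8 genes of the pathway lists past 2-fold, the 5 genes on each side of Mrpl14 and the 5 nearest in response. One gene of the pathway lists is not reported here by name. The members, lists and rules were chosen with earlier results of these data known.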

Additional observations from a re-analysis of the deposited data

How the results depend on the processing

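No paired analysis was possible because each genotype had 1 library. The centred log2 ratio of Mrpl14 was below 0 and that of the rest of the family was below 0 under every alternative run. Of 16 other named members, Mrps18a changed sign, from 0.10 to -0.063 with at least 1000 genes and at most 5% mitochondrial UMIs and to -0.15 without centring. TMM factors, and totals without mitochondrial, cytosolic ribosomal protein and haemoglobin genes, cannot change a centred value and did not.

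Mrpl14, at -2.70, was -3.09 with at least 1000 genes and at most 5% mitochondrial UMIs, -3.15 as the mean of each cell's CPM and -2.95 without centring. Chosen after seeing the data, cells of under 4000 UMIs gave -3.50 and cells of 16000 or more -1.96. The rest of the family, at -0.13, was -0.23 with the stricter cell filter, -0.17 as the mean of each cell's CPM, -0.18 with genes of at least 200 UMIs, -0.10 both with no filter on cells and with no minimum beyond 1 UMI, and -0.38 without centring. Added later, TMM factors without centring gave -0.11, cells of under 4000 UMIs -0.47 and cells of 16000 or more -0.094.

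The 20 lower and 8 higher members became 31 and 1 without centring, where 33.9% and 9.48% of all genes were past the fold, and 34 and 3 in cells of under 4000 UMIs (23.6% and 20.1%). With the stricter cell filter 4 were higher (17.5%).

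The family ratio between cycling progenitor-like and projection neuron-like cells, 0.21 in WT, was 0.14 with the stricter filter, 0.18 with doublets kept and 0.23 without mitochondrial, ribosomal and haemoglobin genes in the totals. In STING cKO, at 0.29, it was 0.32 with the stricter filter, 0.34 both as the mean of each cell's CPM and at resolution 0.5, and 0.33 at resolution 2. Before rounding, each of these lay outside the counting interval of the value it is set against, and the cause was not tested. For those 16 members (the 15 other highest and lowest by centred ratio, and Mrps18a), 78 of 112 values under 7 alternatives stayed inside the counting interval, 32 moved outside it with the same sign and 2, both of Mrps18a, changed sign.

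Leaving out a replicate was not possible with 1 library per group. The libraries also differed in sex, which cannot be told apart from genotype.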
